A study of Mus musculus with 4 samples.

Results

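Kinesin and unconventional myosin motor genes were described in the right testes of 4 adult KM mice. In the hemicastrated mice (2 libraries) the left testis had been taken out before puberty. The control mice (2 libraries) had sham surgery at that age. The genes described were taken from those of the deposited expression table whose GENCODE symbol begins with Kif followed by a digit or c, or with Myo followed by a digit. They number 67 of 22073 genes: 42 kinesin genes, 24 unconventional myosin genes and Kif1bp, whose product binds kinesins and is not itself a motor. The labels give no age, name the molecule as genomic DNA where the protocol describes poly(A) RNA, and speak of 3 mice per group in the protocol and of 2 in the design text. The 4 libraries were taken as 4 mice, since the protocol speaks of RNA from 4 individuals. The labels name no genetic change and no drug in either group.

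Kinesins use ATP to move along microtubules or to take their ends apart, and unconventional myosins use ATP to pull on actin filaments, mostly at membranes and on organelles. In the testis, microtubule motors serve the meiotic spindle, the manchette that shapes the spermatid head, and the building of the sperm tail. Myosins work in the actin-rich junctions between Sertoli cells and germ cells, in the cortex of every cell and in the microvilli of epithelia.

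Values are FPKM, fragments scaled to transcript length and to mapped fragments, so levels can be set side by side between genes. Read depth is unknown, so precision rests on how far libraries of the same group lie apart. Testing with limma was limited to genes that averaged 1 FPKM or more, and it ran on log2(FPKM + 1). A gene was called at a Benjamini-Hochberg adjusted p under 0.05 over all 11343 tested genes. Log2 fold changes are hemicastrated minus control. A permutation test of 1 gene with 2 libraries against 2 cannot give a two-sided exact p under 0.33. The libraries hold germ cells throughout: 7 elongating spermatid markers, protamines and transition proteins among them, summed to 23101 and 23265 FPKM in the hemicastrated libraries and to 20834 and 22203 FPKM in the controls. Some duct epithelium markers of the control libraries are near 0 in the hemicastrated ones, with Crisp1, a secretory protein of the epididymis, at 0.0453 and 0.0391 FPKM in hemicastrated and 545 and 786 FPKM in control libraries.

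Of the 67 members described, 13 had a mean of at least 10 FPKM, 34 lay between 1 and 10 FPKM, 19 lay under 1 FPKM, and Kif12 was listed at 0 in every library. The 47 of them at or above 1 FPKM were tested: 31 kinesins, 15 myosins and Kif1bp. In limma 0 of these 47 were called in either direction, and 3, the kinesins Kif17, Kif1c and Kif5c, had an unadjusted p under 0.05, or 6.38%, against 10.5% of all tested genes. Among all tested genes, 1.19% were called lower (135 genes) and 0.106% higher (12 genes); without control 2 these were 78 and 0 genes, without control 1 they were 92 and 4, and without hemicastrated 1 or 2 the higher calls numbered 24 and 26. The 42 kinesin genes together held 643 and 670.1 FPKM in the hemicastrated libraries and 664 and 671 FPKM in the controls. The 24 myosin genes together held 84.8 and 93.0 FPKM in the hemicastrated libraries and 85.3 and 88.6 FPKM in the controls. The summed levels of both families overlapped between the groups.

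**Figure D1:**
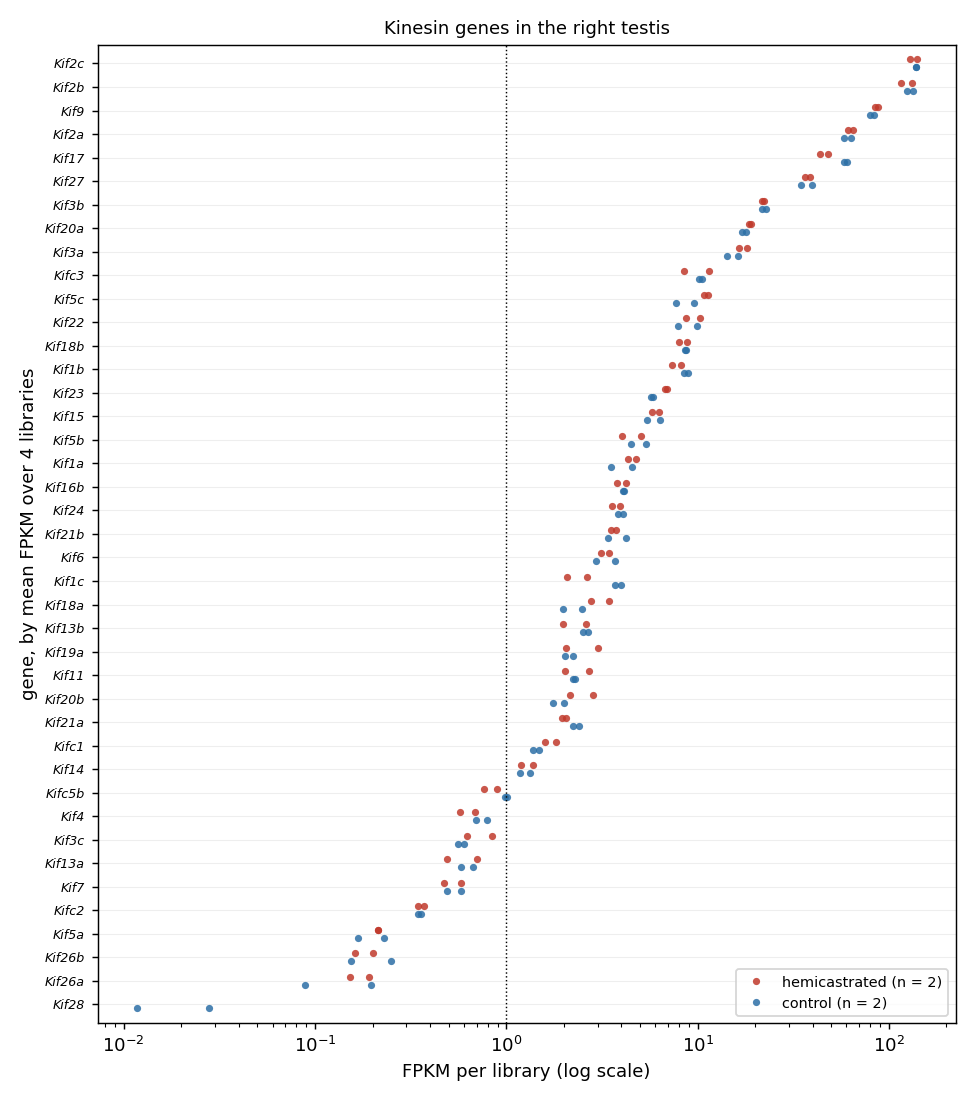
FPKM of each kinesin gene above 0 (log axis) in the 2 hemicastrated libraries (red, upper dots of each row) and the 2 control libraries (blue, lower dots), ordered by the mean over 4 libraries. The dotted line marks 1 FPKM, the testing limit. Kif2c and Kif2b stand highest, and Kif17 and Kif1c have both hemicastrated values to the left of both control values; Kif28 is listed at 0 in both hemicastrated libraries.

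Kinesins of the spindle and of cell division formed the first group. Of 13 members, 11 were tested, 0 were called in either direction, and the median log2 fold change was 0.08, against -0.03 over all tested genes. Kif2c, which takes tubulin off microtubule ends at centromeres, had the highest level of any motor gene (ENSMUSG00000028678, chromosome 4, 117159639 to 117182639, GRCm38). It stood at 129 and 139.5 FPKM in hemicastrated and 139 and 138 FPKM in control libraries, and its groups overlapped (log2 fold change -0.05, 95% confidence interval -0.25 to 0.15, limma adjusted p = 0.887). Kif20a, which acts at the central spindle in cytokinesis, was at 19.0 and 18.6 FPKM in hemicastrated and 17.1 and 17.98 FPKM in control libraries. Both hemicastrated values were above both control values, by less than the test could separate (log2 fold change 0.10, limma adjusted p = 0.784). Of the exonic bases of Kif20a, 29.3% lie opposite Cdc23, and the libraries were not described as stranded, so reads from the shared bases cannot be assigned to either gene.

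Kif22 and Kif18b, genes with high levels, overlapped between the groups. Kif22, a motor on chromosome arms, was at 10.3 and 8.67 FPKM in hemicastrated and 9.93 and 7.91 FPKM in control libraries. Kif18b, which shortens astral microtubules, was at 7.98 and 8.85 FPKM in hemicastrated and 8.73 and 8.63 FPKM in control libraries. The log2 fold changes were 0.08 for Kif22 and -0.04 for Kif18b, each smaller than its standard error (0.15 and 0.11).

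With all 4 libraries, the largest shift of a spindle kinesin was that of Kif18a, which damps chromosome movement at metaphase and which mouse germ cells need to divide. Kif18a was at 3.45 and 2.77 FPKM in hemicastrated and 1.98 and 2.50 FPKM in control libraries, with no overlap. It was not called (log2 fold change 0.34, 95% confidence interval -0.04 to 0.73, limma adjusted p = 0.534), and its log2 fold change was 0.22 without hemicastrated 1 and 0.23 without control 1. Kif23, the kinesin of the centralspindlin complex, was tight within each group, at 6.78 and 6.88 FPKM in hemicastrated and 5.71 and 5.81 FPKM in control libraries, and was not called either (log2 fold change 0.21, limma adjusted p = 0.597). In this list 5 of 11 tested members had both hemicastrated values above both controls and 0 had both below. Over all tested genes, such separation with higher values occurred in 16.3% and with lower values in 24.8%. The 5 include Kif20a and Kifc1, which share sequence with other genes. Kif4 and Kifc5b of the list, untested because their means lay under 1 FPKM, had both hemicastrated values below both controls. The 6 proliferation markers, Mki67 and Top2a among them, summed to 191 and 199 FPKM in hemicastrated and 187 and 186 FPKM in control libraries, with 0 called. The part of dividing cells in the values of the spindle kinesins was not tested.

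Kifc1, a minus-end kinesin that bundles spindle microtubules and works in the spermatid manchette, cannot be measured cleanly. Of its 31-base stretches, 57.2% also occur in transcripts of another gene, mostly Kifc5b, which stands on the same chromosome 17. Kifc1 was at 1.81 and 1.60 FPKM in hemicastrated and 1.49 and 1.39 FPKM in control libraries, while Kifc5b was at 0.769 and 0.890 FPKM in hemicastrated and 0.991 and 1.01 FPKM in control libraries. Kifc1 and Kifc5b lean in opposite directions, and the sources used here do not say how their shared reads were split.

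The remaining spindle kinesins were lower in level. Kif15 was at 6.26 and 5.79 FPKM in hemicastrated and 5.44 and 6.40 FPKM in control libraries. Kif11 was at 2.69 and 2.02 FPKM in hemicastrated and 2.28 and 2.22 FPKM in control libraries. Both genes, whose products push spindle poles apart, overlapped between the groups. Kif20b, a motor of late cytokinesis, was at 2.83 and 2.15 FPKM in hemicastrated and 1.76 and 1.998 FPKM in control libraries, without overlap and without a call (log2 fold change 0.27). Kif14, of the midbody, lay between 1.19 and 1.37 FPKM in all libraries. The X-linked Kif4, a chromosome motor, was under the testing limit at 0.683 and 0.571 FPKM in hemicastrated and 0.794 and 0.693 FPKM in control libraries, the opposite direction to most of the list.

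Kinesins of the cilium, the flagellum and the microtubule end held most of the family's signal. This share depends on the grouping, which puts Kif2b and Kif2a in this list and Kif2c among the spindle kinesins. Of 9 members, 8 were tested and 0 were called, with a median log2 fold change of 0.003. Kif2b and Kif2a, relatives of Kif2c that also depolymerise microtubules, were abundant. Kif2b (ENSMUSG00000046755, chromosome 11, 91575315 to 91577558) was at 115 and 132 FPKM in hemicastrated and 125 and 133 FPKM in control libraries, and its groups overlapped (log2 fold change -0.06, 95% confidence interval -0.30 to 0.17). It is the 1 member annotated with a single exon, whereas Kif2a has up to 22 and Kif2c up to 20 exons in 1 transcript. Kif2a was at 61.5 and 65.0 FPKM in hemicastrated and 58.5 and 63.5 FPKM in control libraries, which overlapped, and 19.2% of its exonic bases lie opposite Dimt1.

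Kif9, a motor of the central pair in motile cilia and the sperm tail, was at 84.7 and 88.3 FPKM in hemicastrated and 83.2 and 79.8 FPKM in control libraries. Its values did not overlap, yet the difference was within the test's error (log2 fold change 0.08, 95% confidence interval -0.11 to 0.28, limma adjusted p = 0.781). Kif27, a relative of the Hedgehog pathway kinesin Kif7, was at 36.2 and 38.8 FPKM in hemicastrated and 39.9 and 34.8 FPKM in control libraries, while Kif7 itself was between 0.474 and 0.581 FPKM in all 4 libraries. The other tested members of the list, Kif24, Kif6 and Kif19a, which shortens cilia, lay between 2.03 and 4.07 FPKM and overlapped between the groups. Kif17, Kif2a, Kif2b, Kif2c and Kif9 together made up 68.2% and 69.9% of the summed kinesin FPKM in the hemicastrated libraries and 70.2% and 70.5% in the controls.

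Kif17, which carries cargo in cilia and, in mouse spermatids, moves the coactivator ACT of the transcription factor CREM out of the nucleus, had the largest shift of this group (ENSMUSG00000028758, chromosome 4, 138250435 to 138301967). It stood at 48.1 and 43.7 FPKM in hemicastrated and 60.5 and 58.4 FPKM in control libraries. Both hemicastrated values were below both controls, with group means of 45.9 ± 3.1 and 59.4 ± 1.5 FPKM (SD, n = 2 each). The 95% confidence interval of its log2 fold change left out 0 (-0.37, -0.59 to -0.15), but the gene was not called over all tested genes (limma adjusted p = 0.204). The adjusted p ranged from 0.176 to 0.675 over the alternatives, and the log2 fold change from -0.43 without hemicastrated 1 to -0.30 without hemicastrated 2.

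Promoters of 53 members were found in the RefSeq promoter table (GRCm38.p6), with 63 start sites between them. Each window runs from 250 bases before to 50 bases from the annotated start. The cAMP response element TGACGTCA, the site read by CREM, was in the windows of Kif17, Kif18a and Kif5c, which is 4.76% of the members' windows and 1.79% of all 32851 windows. The short form TGACG, which the whole element contains on both strands, was in 33.3% of the members' windows and 20.8% of all. The core GTTGCC of the X-box, the motif of RFX factors that drive cilium genes, was in 27.0% of the members' windows and 12.5% of all. The GC box GGGCGG was in 61.9% of the members' windows and 35.7% of all. The TATA box TATAAA went the other way, in 11.1% of the members' windows and 13.6% of all. The members' windows had a median of 60.7% G and C, against 52.7% in all. Both strands were searched, and the motifs were chosen with the members' values known. The windows of the 3 genes with the whole element are printed 5′ to 3′, and that of Kif2b is printed because this single-exon gene is among the highest. Capitals mark TGACG, TGACGTCA and GTTGCC on either strand.
Kif17, plus strand, chr4:138262001-138262300: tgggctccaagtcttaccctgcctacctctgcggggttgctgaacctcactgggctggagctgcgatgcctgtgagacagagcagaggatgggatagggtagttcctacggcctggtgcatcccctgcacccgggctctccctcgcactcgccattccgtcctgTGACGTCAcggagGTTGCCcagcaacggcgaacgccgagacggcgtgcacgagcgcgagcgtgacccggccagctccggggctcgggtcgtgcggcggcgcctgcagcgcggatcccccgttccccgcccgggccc
Kif5c, plus strand, chr2:49619036-49619335: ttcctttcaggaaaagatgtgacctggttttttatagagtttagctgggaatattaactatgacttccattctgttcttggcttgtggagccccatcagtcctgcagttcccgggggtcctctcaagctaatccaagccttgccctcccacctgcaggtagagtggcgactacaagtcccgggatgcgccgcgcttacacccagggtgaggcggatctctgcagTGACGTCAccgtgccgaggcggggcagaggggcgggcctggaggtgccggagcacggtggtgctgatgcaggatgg
Kif18a, plus strand, chr2:109280488-109280787: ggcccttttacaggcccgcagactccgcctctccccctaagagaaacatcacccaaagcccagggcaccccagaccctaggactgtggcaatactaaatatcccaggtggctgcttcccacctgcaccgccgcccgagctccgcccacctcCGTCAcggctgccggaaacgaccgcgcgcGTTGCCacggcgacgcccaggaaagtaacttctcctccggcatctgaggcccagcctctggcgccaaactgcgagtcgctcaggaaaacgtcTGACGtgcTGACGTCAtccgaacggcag
Kif2b, minus strand, chr11:91577506-91577805: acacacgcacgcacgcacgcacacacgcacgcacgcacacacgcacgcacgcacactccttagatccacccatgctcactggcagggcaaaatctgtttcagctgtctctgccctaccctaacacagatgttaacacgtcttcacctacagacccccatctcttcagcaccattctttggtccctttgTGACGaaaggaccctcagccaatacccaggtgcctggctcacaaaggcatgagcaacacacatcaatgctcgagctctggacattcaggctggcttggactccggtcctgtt
The element begins 86 bases before the start of Kif17 and 26 bases before that of Kif5c, and 30 bases after that of Kif18a. The Kif17 start used here lies inside the gene, whose span on the plus strand begins at 138250435. In Kif17 a GTTGCC match begins 73 bases before the start, and Kif18a holds one at 70 bases before its start. Kif2b has no whole element in this window and a single TGACG, 62 bases before the start. Of the 3 genes with the whole element, Kif17 had lower and Kif5c and Kif18a had higher values in the hemicastrated libraries, and none was called. A match of letters is a description and says nothing of a factor's binding.

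Transport kinesins carry vesicles, organelles and ciliary cargo along microtubules. Of 20 members, 12 were tested and 0 were called, with a median log2 fold change of -0.06. The subunits of kinesin-2, the motor of intraflagellar transport, were the highest. Kif3b was at 21.8 and 22.2 FPKM in hemicastrated and 21.8 and 22.8 FPKM in control libraries. Kif3a was at 18.2 and 16.4 FPKM in hemicastrated and 14.3 and 16.2 FPKM in control libraries. Kif3b overlapped between the groups and Kif3a did not. The 95% confidence intervals of their log2 fold changes ran from -0.24 to 0.21 for Kif3b and from -0.11 to 0.44 for Kif3a. Kif3c, an alternative partner of Kif3a, stayed between 0.556 and 0.837 FPKM, with 40.7% of its exonic bases opposite other genes.

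Kif5c, a conventional kinesin heavy chain best known from neurons, was the conventional heavy chain with the highest level. It was at 11.4 and 10.8 FPKM in hemicastrated and 7.69 and 9.59 FPKM in control libraries. The values did not overlap, and the gene was not called (log2 fold change 0.33, 95% confidence interval 0.01 to 0.66, limma adjusted p = 0.46); without control 1 the log2 fold change was 0.19. Kif5b, the widely expressed heavy chain, was at 5.05 and 4.04 FPKM in hemicastrated and 4.51 and 5.37 FPKM in control libraries, and Kif5a was at most 0.230 FPKM in any library. Kifc3, a minus-end motor of apical transport and cell junctions, was at 11.4 and 8.51 FPKM in hemicastrated and 10.5 and 10.2 FPKM in control libraries, so its groups overlapped, and 27.5% of its exonic bases lie opposite other genes.

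Kif1c, which carries vesicles and feeds the podosomes of motile cells, was the kinesin with the largest shift in size (ENSMUSG00000020821, chromosome 11, 70700548 to 70731964). It was at 2.09 and 2.65 FPKM in hemicastrated and 3.97 and 3.69 FPKM in control libraries. The groups did not overlap, and the hemicastrated mean was 0.618 of the control mean. It was not called (log2 fold change -0.52, 95% confidence interval -0.88 to -0.17, limma adjusted p = 0.258), and its log2 fold change was -0.40 without hemicastrated 1. Its relatives Kif1b and Kif1a, carriers of mitochondria and synaptic vesicle precursors in neurons, were at 7.39 and 8.23 against 8.48 and 8.90 FPKM, and at 4.31 and 4.76 against 3.53 and 4.53 FPKM, with the hemicastrated pair first; Kif1b did not overlap between the groups and Kif1a did. Kif1bp, at 16.7 and 16.3 FPKM in hemicastrated and 16.5 and 16.5 FPKM in control libraries, overlapped between the groups (95% confidence interval of the log2 fold change -0.23 to 0.23).
Of the other tested transport kinesins, Kif16b, Kif21b and Kif13b overlapped between the groups, and Kif21a was at 1.95 and 2.06 FPKM in hemicastrated and 2.41 and 2.23 FPKM in control libraries, without a call. Kif13a, Kifc2, Kif26a and Kif26b lay under the testing limit and overlapped. Kif28 was listed at 0 in both hemicastrated libraries and was at 0.0117 and 0.0279 FPKM in the controls.

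**Figure D2:**
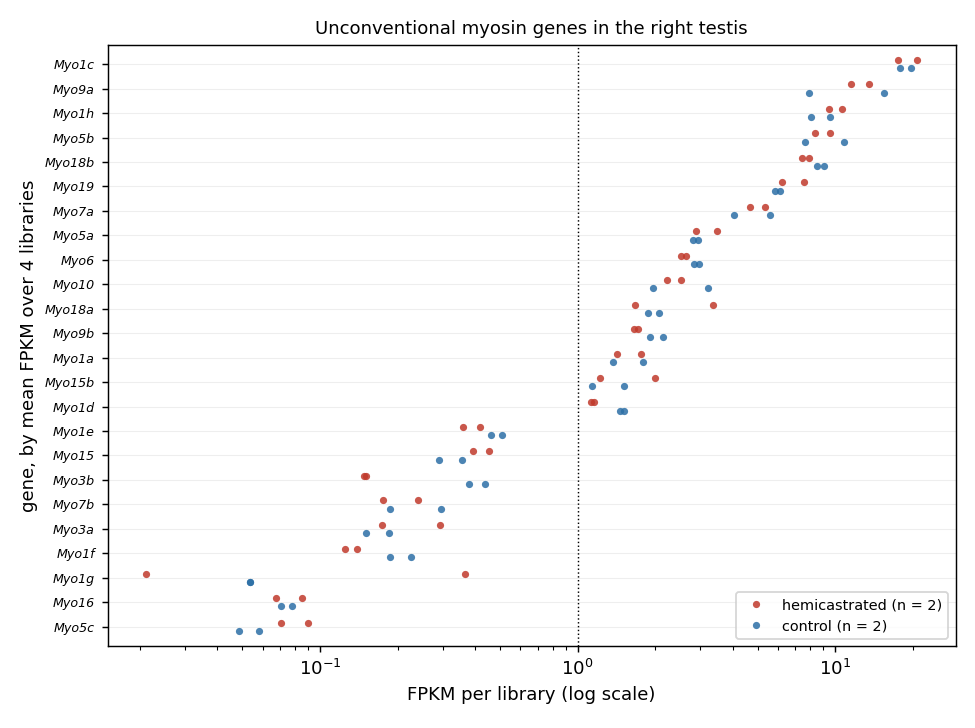
FPKM of the 24 unconventional myosin genes (log axis) in the 2 hemicastrated libraries (red, upper dots) and the 2 control libraries (blue, lower dots), ordered by the mean over 4 libraries, with 1 FPKM dotted. Myo3b has both hemicastrated values well to the left of the controls, and Myo1c stands highest at 17.6 to 20.8 FPKM.

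Class I myosins are single-headed motors that link membranes to actin. Of 7 members described, 4 were tested and 0 were called, with a median log2 fold change of 0.017. Myo1c, which serves membrane traffic and hearing, had the highest level of any unconventional myosin, at 17.6 and 20.8 FPKM in hemicastrated and 19.7 and 17.9 FPKM in control libraries, and its groups overlapped (log2 fold change 0.03, 95% confidence interval -0.26 to 0.31). Myo1h was at 10.7 and 9.50 FPKM in hemicastrated and 9.57 and 8.03 FPKM in control libraries, and 25.8% of its exonic bases lie opposite Kctd10. The groups of Myo1a, a brush border motor of the intestine, overlapped at 1.42 and 1.77 FPKM in hemicastrated and 1.79 and 1.37 FPKM in control libraries. Myo1d was at 1.16 and 1.12 FPKM in hemicastrated and 1.51 and 1.47 FPKM in control libraries, without overlap. It had the largest shift of the tested class I myosins described and was not called (log2 fold change -0.22, 95% confidence interval -0.55 to 0.11, limma adjusted p = 0.657). Under quantile normalization the log2 fold change of Myo1d was -0.11, smaller in size than the 0.23 of Myo1h, and with a pseudocount of 0.1 it was -0.36. Myo1e and the leukocyte myosin Myo1f lay under the testing limit, Myo1e at 0.358 and 0.416 against 0.511 and 0.462 FPKM and Myo1f at 0.125 and 0.139 against 0.225 and 0.187 FPKM, hemicastrated values first. Myo1g, a myosin of lymphocytes, was at 0.0211 and 0.366 FPKM in hemicastrated and 0.0535 and 0.0537 FPKM in control libraries, so hemicastrated 2 stood apart from the rest.

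Some markers of other tissues were lower in the hemicastrated libraries, as were Kif1c, Kif17 and Myo1d. These motor genes are 3 of the 8 tested members with lower hemicastrated values without overlap, and 9 tested members had higher values without overlap. Of 11 simple epithelium markers, 5 were tested, all with log2 fold changes below 0, and 3 were called lower. Over all tested genes, 1.19% were called lower. The list summed to 12.4 and 11.2 FPKM in hemicastrated and 29.4 and 30.4 FPKM in control libraries. The keratin Krt18 was at 0.124 and 0.258 FPKM in hemicastrated and 2.63 and 2.51 FPKM in control libraries, and Krt7 was listed at 0 in both hemicastrated libraries. Of 15 epididymal duct markers, 8 were tested and 5 were called lower. The list summed to 425 and 492 FPKM in hemicastrated and 1200.2 and 1693 FPKM in control libraries. The other 3 tested members were not called and had log2 fold changes above 0. Of these, Cst8 was at 206 and 242 FPKM in hemicastrated and 169 and 199.7 FPKM in control libraries, without overlap. Lcn2, at 213 and 242 FPKM in hemicastrated and 157 and 266 FPKM in control libraries, overlapped, as did Rnase10. Adam7 of that list was listed at 0 in both hemicastrated libraries, and Lcn5, Lcn8 and Lcn10 in all 4 libraries. Of 8 smooth muscle markers all were tested, all had log2 fold changes below 0, and 5 were called lower. The sums were 215 and 238 FPKM in hemicastrated and 317 and 291 FPKM in control libraries. Of the tested markers of spermatogonia, spermatocytes, round and elongating spermatids, Sertoli cells, Leydig cells, macrophages and endothelium, 0 were called. The summed FPKM of the spermatocyte, round spermatid, elongating spermatid and Leydig cell lists was higher in both hemicastrated libraries than in both controls. That of the spermatogonia and macrophage lists was lower, and that of the Sertoli cell and endothelium lists overlapped. A sum is weighted to the most abundant genes. By gene, the median log2 fold change was 0.001 for elongating spermatids (4 above and 3 below 0) and -0.007 for Leydig cells (3 above and 4 below). It was 0.16 for spermatocytes (6 above and 3 below) and 0.19 for round spermatids (6 above and 1 below). For endothelium, 1 marker was tested. The part of these tissues in the values of the motor genes was not tested, nor was the cause of the differences in the markers. In a whole organ, among other things, fewer cells of a type and less RNA per cell cannot be told apart.

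**Figure D3:**
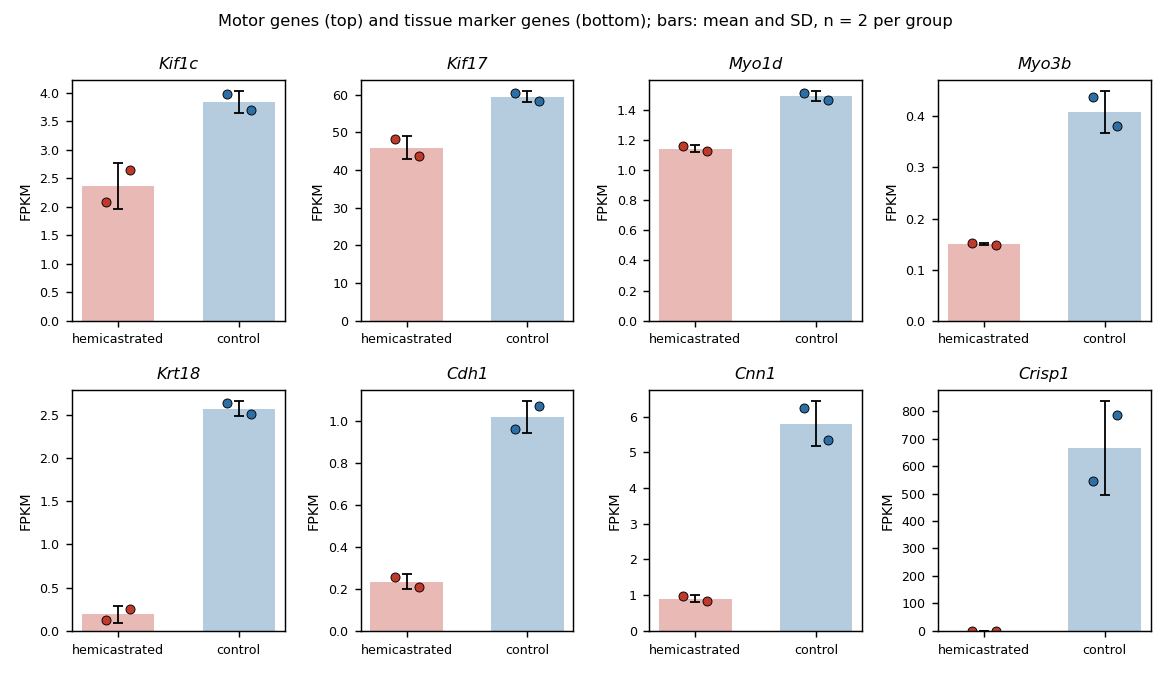
FPKM of 4 motor genes (top) and 4 tissue marker genes (bottom) in hemicastrated (left, red) and control (right, blue) libraries; dots are libraries, bars are means with SD, n = 2 per group, and each panel has its own axis from 0. The 8 genes were chosen because both hemicastrated values lay below both controls. Krt18, Cnn1 and Crisp1 were called, and Kif1c, Kif17 and Myo1d were not. Myo3b and Cdh1 were not tested because their means lay under 1 FPKM. Not shown are the 9 tested motor genes with higher hemicastrated values without overlap. Of the 8 tested epididymal duct markers, 3 had log2 fold changes above 0.

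Cargo and microvillus myosins of classes V, VI and VII showed 0 calls among 4 tested of 6 members, with a median log2 fold change of 0.01. Myo5b, the partner of Rab11 in recycling endosomes of polarised cells, was at 8.39 and 9.51 FPKM in hemicastrated and 7.67 and 10.8 FPKM in control libraries. Myo7a, a motor of sensory hair bundles that is also made in the testis, was at 4.66 and 5.34 FPKM in hemicastrated and 5.59 and 4.07 FPKM in control libraries. The control values of both genes enclosed the hemicastrated ones. Myo5a, the melanosome carrier, was at 3.47 and 2.88 FPKM in hemicastrated and 2.94 and 2.82 FPKM in control libraries. Myo6, which walks to the minus end of actin and in Drosophila separates the spermatids of a cyst, was at 2.51 and 2.63 FPKM in hemicastrated and 2.97 and 2.83 FPKM in control libraries, with no overlap and no call (log2 fold change -0.13, limma adjusted p = 0.796). In the members Myo5c and Myo7b, known from epithelia, the highest value in any library was 0.0902 FPKM for Myo5c and 0.296 FPKM for Myo7b.

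Among the remaining myosins, 7 of 11 were tested and 0 were called, with a median log2 fold change of 0.15. Myo9a was at 11.5 and 13.6 FPKM in hemicastrated and 7.93 and 15.4 FPKM in control libraries. Its controls differed 1.95-fold from each other, and the 95% confidence interval of its log2 fold change ran from -0.51 to 0.82. Myo18b, known from striated muscle, was at 7.91 and 7.46 FPKM in hemicastrated and 9.04 and 8.53 FPKM in control libraries (log2 fold change -0.17, limma adjusted p = 0.67). Myo19, which moves mitochondria, was at 6.23 and 7.55 FPKM in hemicastrated and 6.11 and 5.87 FPKM in control libraries (log2 fold change 0.17, limma adjusted p = 0.725); without hemicastrated 2 its log2 fold change was 0.049. Both genes had no overlap between the groups, in opposite directions.

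Myo10, a motor of filopodia, was at 2.23 and 2.53 FPKM in hemicastrated and 3.21 and 1.96 FPKM in control libraries. Myo18a, a Golgi-linked myosin, was at 1.68 and 3.34 FPKM in hemicastrated and 1.88 and 2.07 FPKM in control libraries. In each of these genes 1 library stood away from the other 3, control 1 for Myo10 and hemicastrated 2 for Myo18a. Myo3b, a kinase-bearing myosin of actin protrusions, was under the testing limit and is named after its values were seen. It was at 0.151 and 0.149 FPKM in hemicastrated and 0.437 and 0.380 FPKM in control libraries, so the hemicastrated mean was 0.367 of the control mean. Its relative Myo3a was at 0.174 and 0.292 FPKM in hemicastrated and 0.151 and 0.185 FPKM in control libraries.
Myo9b, the class IX relative of Myo9a, was at 1.72 and 1.65 FPKM in hemicastrated and 2.15 and 1.90 FPKM in control libraries, without overlap and without a call (log2 fold change -0.17). Myo15b overlapped at 1.99 and 1.22 FPKM in hemicastrated and 1.14 and 1.51 FPKM in control libraries. Myo15, needed for hearing, and Myo16 were under the testing limit, with Myo15 at 0.455 and 0.394 FPKM in hemicastrated and 0.357 and 0.290 FPKM in control libraries and Myo16 at most 0.0849 FPKM in any library.

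**Figure D4:**
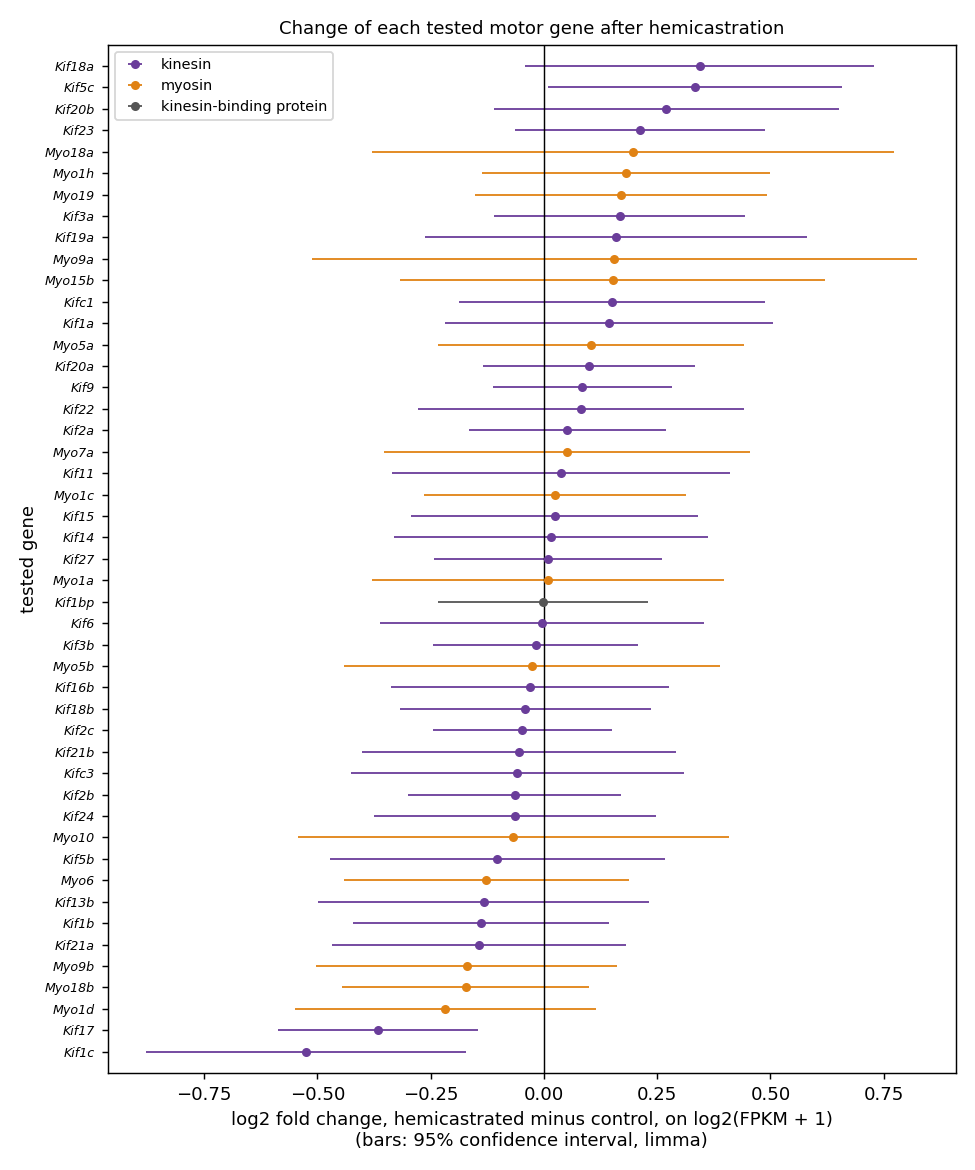
Log2 fold change (hemicastrated minus control, on log2(FPKM + 1)) of the 47 tested genes, with 95% confidence intervals from limma, ordered by size; colours separate kinesins, myosins and Kif1bp. The intervals of Kif17 and Kif1c lie below 0, that of Kif5c lies just above 0, and the other 44 include 0.

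Across the 47 tested members the shifts were small. The median log2 fold change was 0.0094 for the kinesins and 0.025 for the myosins, against -0.026 over all tested genes. In 42 of 47 members the log2 fold change was smaller than 0.25 in size, a limit chosen after the values were seen, which is 89.4%, against 80.4% of all tested genes. In 47 of 47 the 95% confidence interval excluded a change of 1 on the log2(FPKM + 1) scale in either direction. The added 1 shrinks the changes of genes with low FPKM. In such genes a limit of 1 therefore stands for a larger fold change in FPKM, as in Kif1c. The libraries of the groups did not overlap in 17 members, 9 with higher and 8 with lower hemicastrated values, or 19.1% higher and 17.02% lower, against 16.3% higher and 24.8% lower over all tested genes. In Kif1c the groups were also at least 1.5-fold apart in their means, a combination met by 4.52% of all tested genes with lower and 1.58% with higher hemicastrated values.

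**Figure D5:**
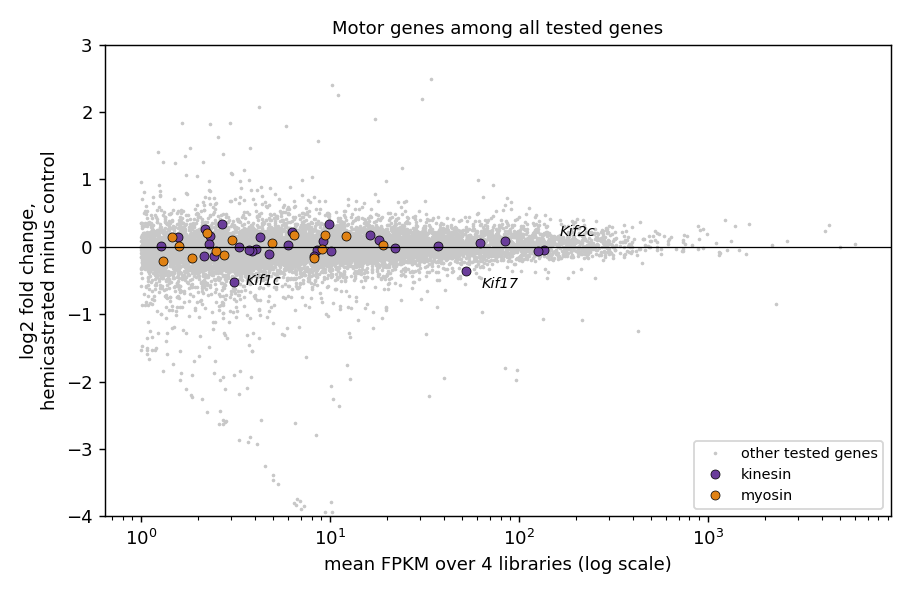
Log2 fold change (hemicastrated minus control) against mean FPKM over 4 libraries (log axis) for other tested genes in grey, kinesins in purple and myosins in orange; 21 genes lie below the lower edge of the plot. Most motor genes sit in the dense band around 0, and Kif1c lies lowest among them at -0.52.

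Genes that work with the motors were taken from 4 lists, and 0 of their tested members were called. All 20 kinesin partners were tested (median log2 fold change 0.03), light chains, adaptors and spindle partners among them. Their smallest p-values belonged to Hap1, an adaptor of huntingtin, at 2.96 and 2.95 FPKM in hemicastrated and 4.52 and 3.58 FPKM in control libraries, and to the light chain gene Klc4, at 4.54 and 3.16 FPKM in hemicastrated and 2.74 and 2.63 FPKM in control libraries (limma adjusted p of 0.483 and 0.521). All 22 genes of cytoplasmic dynein and dynactin, the minus-end motor that opposes most kinesins, were tested (median -0.01). The light chain gene Dynlrb2 was at 77.7 and 83.2 FPKM in hemicastrated and 68.2 and 74.5 FPKM in control libraries, and the dynactin gene Dctn4 at 17.2 and 19.3 FPKM in hemicastrated and 21.4 and 20.1 FPKM in control libraries (limma adjusted p of 0.592 and 0.634).

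Of 22 partners of unconventional myosins, 17 were tested (median -0.03). Of the partners under the testing limit, named after their values were seen, Mlph was at 0.0663 and 0.0828 FPKM in hemicastrated and 0.534 and 0.729 FPKM in control libraries. Cdhr2, Cdhr5 and Tom1 also had lower hemicastrated values without overlap, and Ush1c had higher ones. Calm3, 1 of the calmodulin genes whose product is the light chain of most of these myosins, was at 161 and 144 FPKM in hemicastrated and 122 and 128 FPKM in control libraries (limma adjusted p = 0.321). Dab2, an endocytic adaptor of Myo6, was at 1.10 and 1.01 FPKM in hemicastrated and 2.50 and 1.56 FPKM in control libraries (limma adjusted p = 0.383). The list of conventional myosin II genes had 5 of 7 tested and a median log2 fold change of -0.37, with all 5 below 0. Its smooth muscle heavy chain Myh11 was at 1.13 and 0.899 FPKM in hemicastrated and 3.30 and 1.88 FPKM in control libraries (limma adjusted p = 0.241), and the kinase gene Mylk was at 2.74 and 2.74 FPKM in hemicastrated and 4.48 and 3.28 FPKM in control libraries (limma adjusted p = 0.495). Myh11 is also one of the smooth muscle markers.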

How the data were processed

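FPKM values for each gene in 4 libraries were deposited by the authors in 1 table, per the file headers. The cDNA came from fragmented poly(A) RNA and random primers, and no strand-marking step is described, per the labels' protocols. TopHat2 2.0.11, Cufflinks 2.2.1 and GRCm38 are named, without roles, per the submitters' processing notes; the sources used here do not name the annotation. Values above 0 go down to 5.72e-297, so whole reads and depth could not be recovered, and a gene at 0 is called listed at 0. Of the matching genes, 1 is not reported here and stays out of the members' counts and figures, though not of the fit. GENCODE M21 named 21883 of 22073 identifiers. Genes averaging 1 FPKM or more were tested in limma 3.58.1 (R 4.3.3) on log2(FPKM + 1), with a variance trend, no covariate, two-sided, and the Benjamini-Hochberg adjustment over all 11343 tested genes. The test was checked for bias and for the share of false calls on simulated normal values drawn with limma's own fitted spread. The share of true changes that it finds with 2 libraries per group is not given here. Stretches of 31 bases shared with transcripts of other genes, on either strand, were counted from GENCODE. Members were named with values if called, if the groups did not overlap and lay 1.5-fold apart, or if among the 4 highest or the most shifted of their role list; others named by value were chosen after values were seen. Of the partner lists, called genes were to be named, or else the 2 with the smallest p. Members and lists were chosen with earlier results of these data known. Alternatives changed the pseudocount, filter, scaling, variance model, replicate block and libraries.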

Additional observations from a re-analysis of the deposited data

How the results depend on the processing

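Of the members described, 0 were called higher and 0 lower under all 12 alternatives; with an unadjusted p under 0.05 in limma there were 0 to 2 higher and 1 to 3 lower. The median log2 fold change of the myosins was 0.10 under quantile normalization and -0.089 to 0.091 with 1 library left out; the kinesin median stayed between -0.03 and 0.05. Quantile normalization turned the sign of 3 uncalled log2 fold changes, to 0.0072 for Kif18b, 0.033 for Myo10 and 0.020 for Myo5b. With 1 library left out, signs changed within the ranges -0.11 to 0.026 for Kif18b, -0.065 to 0.23 for Kif22, -0.0071 to 0.11 for Kif2a, -0.16 to 0.031 for Kif2b, -0.10 to 0.0070 for Kif2c, -0.050 to 0.013 for Kif3b, -0.25 to 0.14 for Kifc3, -0.32 to 0.19 for Myo10, -0.15 to 0.55 for Myo18a, -0.11 to 0.13 for Myo1a, -0.089 to 0.14 for Myo1c, -0.25 to 0.20 for Myo5b, -0.14 to 0.24 for Myo7a and -0.28 to 0.60 for Myo9a. Among genes without a change of sign, some log2 fold changes moved by over 1.5 times with 1 library left out. The kinesin ranges were 0.22 to 0.46 for Kif18a, 0.064 to 0.14 for Kif20a, 0.082 to 0.25 for Kif3a, 0.19 to 0.48 for Kif5c and 0.055 to 0.12 for Kif9. The myosin ranges were 0.0028 to 0.20 for Myo5a, 0.049 to 0.29 for Myo19 and 0.067 to 0.29 for Myo1h. Under quantile normalization such moves led to -0.11 for Myo1d, -0.026 for Myo6 and 0.20 for Myo5a. With a pseudocount of 0.1 the log2 fold change of Myo1d was -0.36. The cause of these changes was not tested. Of 315 single-gene values under alternatives, 293 kept direction and call. The shared replicate numbers are not stated to pair mice, and the deviations of same-numbered libraries correlated at 0.0137 over 11343 genes; with the replicate block the member counts stayed at 0 lower and 0 higher in limma, with 2 and 1 at an unadjusted p under 0.05, while genes called higher overall numbered 30, against 12 without it. Without depth, the counting error of genes under 1 FPKM cannot be estimated, and 2 libraries per group limit every interval.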
